A study of Mus musculus with 12 samples.

Results

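The gene list described here holds 36 genes of T cells and natural killer (NK) cells, picked by their mouse symbols out of 55092 features measured in the abdominal aorta. They fall into 9 subsets by role, namely CD3 and T cell receptor signalling, pan-T surface proteins, CD4 and helper genes, CD8, costimulation and checkpoint receptors, the regulatory factor Foxp3, T lineage transcription factors, cytotoxic granule genes and NK receptors. Messenger RNA was sequenced from 12 male mice, 3 in each of 4 groups. CFS mice were CCN2fl/fl controls infused with saline, and CFA mice were CCN2fl/fl controls infused with angiotensin II (Ang II). CSS mice were CCN2SMCΔ mice infused with saline, and CSA mice were CCN2SMCΔ mice infused with Ang II. Infusion lasted 7 days in all groups, and tamoxifen was given to both genotypes. CCN2SMCΔ mice carry floxed Ccn2 and a tamoxifen-inducible Cre driven by the smooth muscle promoter Myh11, so other cells of the vessel keep the gene. The controls are floxed mice without the Cre. The sources used here do not say whether tissue was pooled, and p-values measure only the spread between these libraries.

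T cells recognise antigen through a receptor whose signal is carried by the CD3 chains and the zeta chain, then by the kinases Lck and Zap70 and the adaptor Lat. CD4 T cells help other immune cells, CD8 T cells kill through perforin and granzymes, and regulatory T cells restrain both under the control of Foxp3. NK cells kill without an antigen receptor, using activating and inhibitory receptors such as those encoded by Klrk1, Klrd1 and Ncr1, and both kinds of lymphocyte are found in diseased aortic walls. In bulk tissue a gene's level does not separate fewer cells of a type from less RNA per cell, and these cannot be told apart here.

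Values are in FPKM (fragments per kilobase of exon, scaled to the mapped fragments of the library), a level per length. Different genes are set side by side only as a description of these values. They rest on annotated exon lengths, and in CSA mouse 03 they went with GC content, as given below. Values listed 3 at a time follow the order of mice 01, 02 and 03 for CSA, 71, 72 and 74 for CFA, 54, 55 and 56 for CSS, and 68, 69 and 70 for CFS. Fragments recovered from the deposited values numbered 14555508 to 23102751 per library, and the 36 genes together took 357 to 938 fragments in the 9 libraries outside CSA and 3907 to 6963 in CSA. Ccn2 itself, the targeted gene, was at 255 to 399 FPKM in CSA, 564 to 1105 in CFA, 436 to 640 in CSS and 480 to 1108 in CFS. CSA and CFA did not overlap for Ccn2, whereas CSS and CFS did. The labelled tissue carried its markers, with 7 smooth muscle genes summing to 5516 to 10264 FPKM in the 9 libraries outside CSA and 796 to 957 in CSA. CSA mouse 03 stood apart. It had 18883 features above 0 against 21192 to 24761 elsewhere, and 272 features with exactly 1 fragment against 1128 to 2435 elsewhere. Calls that changed without it are named, and ratios within a library are given with their range over leaving out each mouse.

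Most T cell and NK genes were low in every group but CSA. Of the 36 genes, 32 reached 1 FPKM in no library outside CSA, and 33 had a lowest CSA value above the highest of all 9 other libraries. The exceptions were Cd247, Nkg7 and Gata3. The share of all features that do the same was not computed, so these counts are a description. Shares for CSA against CFA and against CSS are given below. In CSA, 21 genes were at or above 1 FPKM in all 3 mice, and the group means ran from 0.117 FPKM for Themis to 9.81 FPKM for Klrd1. The heat map of levels shows the same contrast gene by gene.

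**Figure D1:**
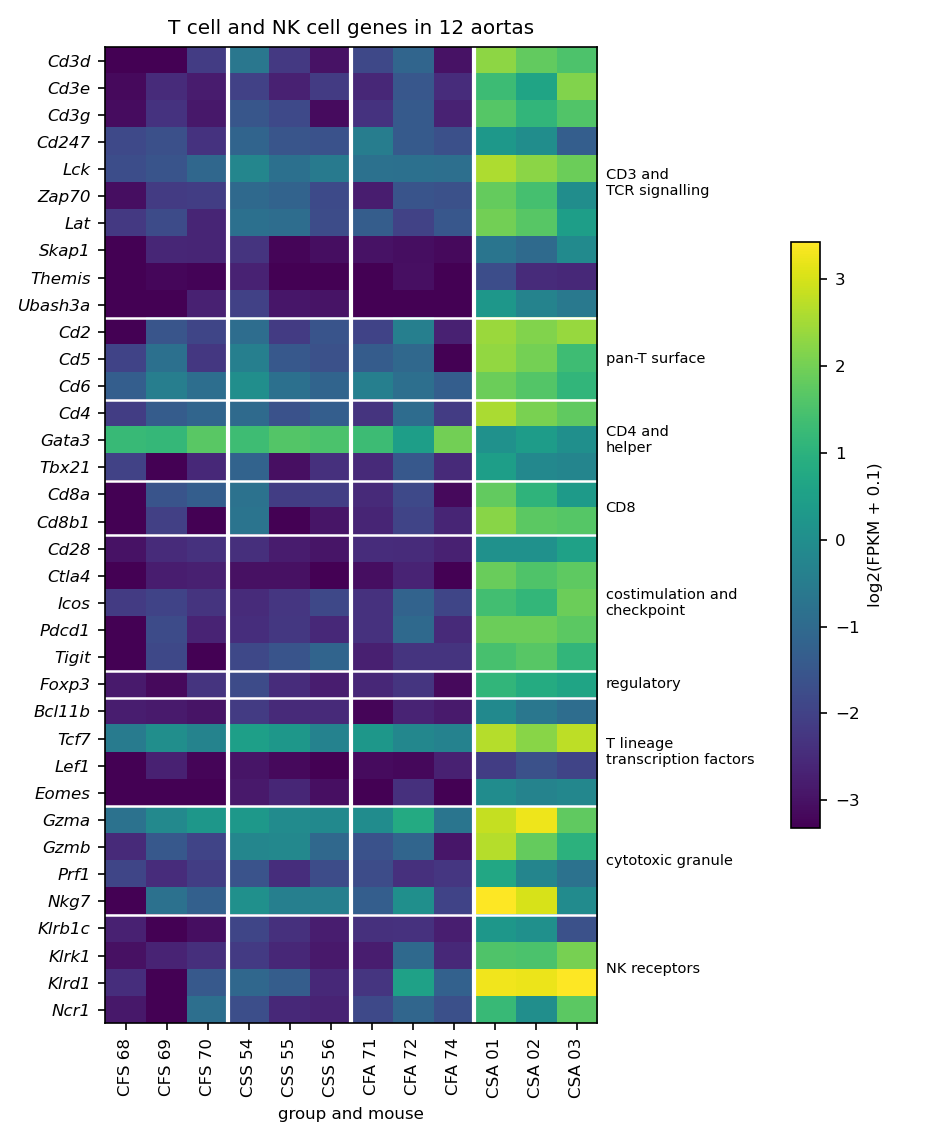
Level of each of the 36 genes in each library, as log2(FPKM + 0.1), with genes as rows grouped by subset and the 12 libraries as columns grouped as CFS, CSS, CFA and CSA. The 3 CSA columns are high for nearly every row, and Gata3 is the row that is lower there.

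The comparison of CSA with CFA asks how these genes differ between genotypes under Ang II. Of the 36 genes, 32 rose in CSA and 0 fell, by limma on log2(FPKM + 0.1) over 31190 features with no filter on low values, at a Benjamini-Hochberg adjusted p below 0.05 and a log2 fold change beyond 1.5. By the same rule 5.82% of all features tested rose and 4.42% fell. The median log2 fold change was 3.09 over the 36 genes, and the median over all features was 0. Those not called were Cd247, Themis, Lef1 and Gata3, of which Gata3 alone pointed down (unadjusted p = 0.0089). Limma voom on recovered fragments called 34 higher and 0 lower. Shares of features called, here and below, are from limma on log2(FPKM + 0.1) with all 12 libraries. Counts by other fits have no such share beside them. CSA and CFA did not overlap for 33 genes higher in CSA and 1 lower, against backgrounds of 15.3% and 14.9% of features. After the filter of 1 FPKM in at least 3 libraries, 22 of the 36 genes were tested among 14676 features, of which 8.95% rose and 8.27% fell. Of those 22 genes 19 passed through the CSA libraries alone, so their share of calls is not read as a result. The fold changes are the same with or without the filter. Errors and adjusted p-values given below are from the filtered table for those 22 genes and from the unfiltered table for the other 14. For the 19 genes that passed through CSA alone the filtered values describe that fit, and their calls rest on the unfiltered table. The 2 fits adjust over different features, so these p-values are not ranked between genes. Without the filter, limma gave an adjusted p of 0.00025 for Cd3e and 0.0014 for Cd3d against CFA. Over those 22 genes both tables called 21 against CFA, 21 against CSS and 18 in the interaction, and none was called in 1 table alone. Because 0.1 FPKM is added before the logarithm, a log2 fold change understates the change of a gene this low. With 1 FPKM added 19 of the 36 genes passed both thresholds, a count with no share of all features beside it. The 13 that lost the call were Zap70, Skap1, Ubash3a, Cd6, Tbx21, Cd8a, Cd28, Foxp3, Bcl11b, Eomes, Prf1, Klrb1c and Ncr1.

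**Figure D2:**
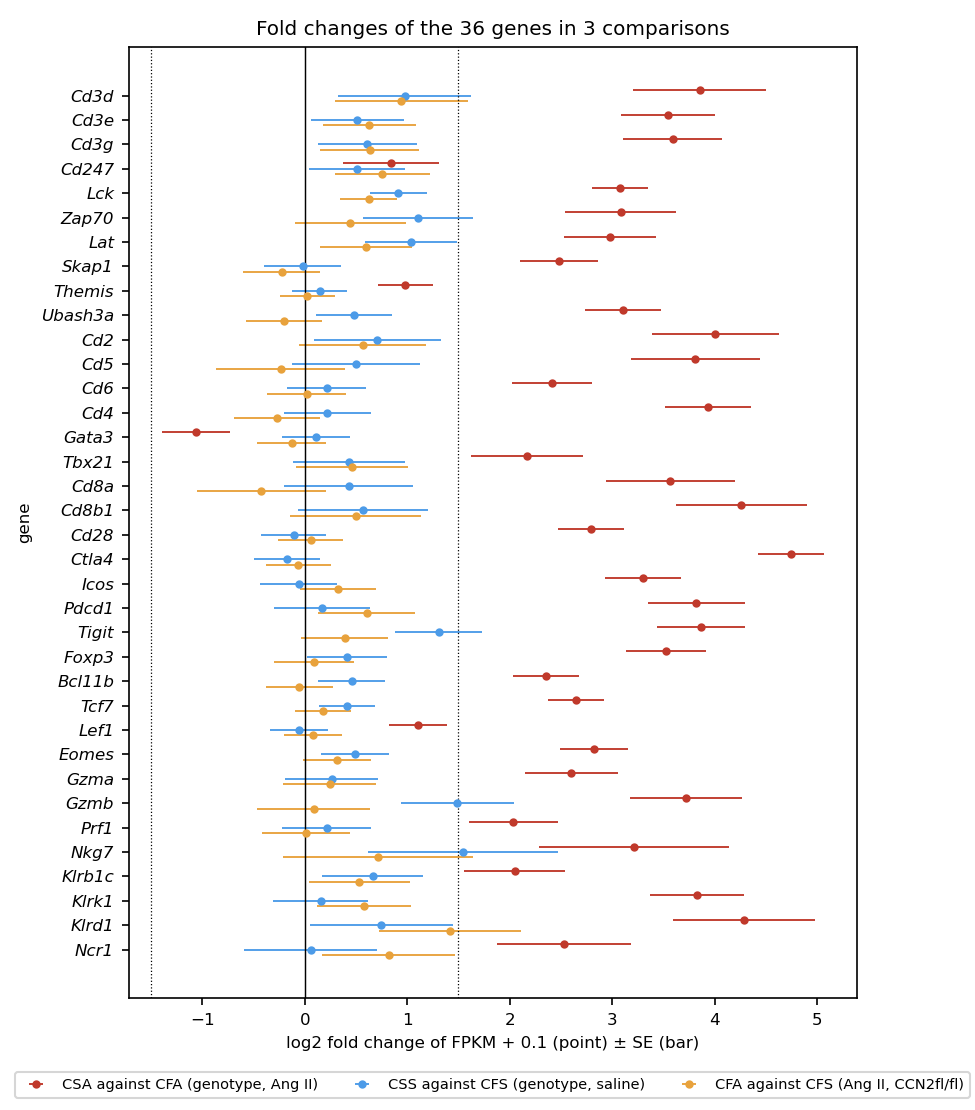
Log2 fold change of FPKM + 0.1 (point) with its standard error (bar) for each of the 36 genes, from the fit without a filter, in CSA against CFA, CSS against CFS and CFA against CFS, with dotted lines at 1.5 in either direction. Points for CSA against CFA lie to the right of the others except at Gata3, and those of the other comparisons lie between -0.42 and 1.54.

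The CD3 chains rose together. Cd3e, the epsilon chain (Ensembl gene ENSMUSG00000032093), was at 2.38, 1.44 and 4.35 FPKM in CSA, 0.0675, 0.254 and 0.0809 in CFA, 0.145, 0.0529 and 0.124 in CSS, and 0.0133, 0.0786 and 0.0426 in CFS. Every CSA mouse was above every other mouse, and the other 3 groups overlapped one another. The mean was 2.72 ± 1.48 FPKM (SD, n = 3) in CSA and 0.134 ± 0.104 in CFA, a 20.3-fold ratio of means, with a log2 fold change of 3.54 ± 0.54 (SE, limma, adjusted p = 0.00038). The delta chain gene Cd3d was at 4.72, 3.40 and 2.80 FPKM in CSA and at most 0.534 elsewhere, with a log2 fold change against CFA of 3.86 ± 0.69 (limma, adjusted p = 0.0011). Cd3g, the gamma chain gene, was at 3.04, 2.06 and 2.91 FPKM in CSA and at most 0.274 elsewhere, with a log2 fold change of 3.59 ± 0.56 (limma, adjusted p = 0.00041). These genes lie within 40056 bases of chromosome 9 (chr9:44969572-45009627, GRCm38). The zeta chain gene Cd247 did not follow. It was at 1.12, 0.885 and 0.306 FPKM in CSA and 0.620, 0.274 and 0.212 in CFA, so the groups overlapped through mouse 03, and its log2 fold change was 0.84 ± 0.47 (limma, adjusted p = 0.26). In the annotation, 60.3% of its exonic bases are shared with Gm16565 or Pou2f1, and whether the deposited values split reads between them was not tested.

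The start regions of the CD3 genes and of Ctla4, the gene with the largest fold change of the 36 (its values follow with the checkpoint receptors), are shown because these genes moved together. Each window is 300 bases, from 250 before to 50 after the start that RefSeq gives the gene on GRCm38.p6, and is written 5′ to 3′ on the gene's strand. For Ctla4 the RefSeq start lies downstream of the GENCODE start given with the checkpoint receptors, inside that longer gene model. Promoters were matched for 28 of the 36 genes. Capitals mark AGGAAG on either strand (CTTCCT on the other), letters that ETS factors bind, or AGATAA on either strand (TTATCT on the other), letters that GATA factors bind. TGTGGT or ACCACA, letters that RUNX factors bind, was searched too and is in none of the 4 windows, and no marked hits overlap.
Cd3g (chr9:44980382-44980681, reverse strand): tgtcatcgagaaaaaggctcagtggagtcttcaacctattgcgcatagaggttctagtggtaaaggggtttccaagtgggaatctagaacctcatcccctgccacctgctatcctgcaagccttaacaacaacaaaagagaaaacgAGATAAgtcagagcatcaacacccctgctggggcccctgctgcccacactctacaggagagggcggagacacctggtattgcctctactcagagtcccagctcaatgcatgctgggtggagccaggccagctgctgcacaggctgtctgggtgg
Cd3d (chr9:44981536-44981835, forward strand): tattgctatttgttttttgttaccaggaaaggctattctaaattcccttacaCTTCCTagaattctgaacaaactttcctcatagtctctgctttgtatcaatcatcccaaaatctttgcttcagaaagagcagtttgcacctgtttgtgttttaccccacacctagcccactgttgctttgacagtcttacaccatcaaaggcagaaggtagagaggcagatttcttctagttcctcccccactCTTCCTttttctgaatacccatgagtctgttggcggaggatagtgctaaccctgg
Cd3e (chr9:45009562-45009861, reverse strand): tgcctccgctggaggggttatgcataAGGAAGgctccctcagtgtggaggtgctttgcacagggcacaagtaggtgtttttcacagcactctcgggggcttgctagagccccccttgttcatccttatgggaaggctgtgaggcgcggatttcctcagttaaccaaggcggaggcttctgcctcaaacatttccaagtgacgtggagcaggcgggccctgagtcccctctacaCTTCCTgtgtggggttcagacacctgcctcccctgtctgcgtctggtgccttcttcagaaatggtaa
Ctla4 (chr1:60908775-60909074, forward strand): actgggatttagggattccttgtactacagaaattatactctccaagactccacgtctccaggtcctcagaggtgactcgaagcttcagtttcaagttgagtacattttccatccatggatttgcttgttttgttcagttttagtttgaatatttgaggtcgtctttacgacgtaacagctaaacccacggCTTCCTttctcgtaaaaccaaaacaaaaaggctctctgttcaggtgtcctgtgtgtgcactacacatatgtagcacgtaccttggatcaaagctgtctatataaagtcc
The Cd3d and Cd3e windows each held 2 matches to the ETS letters, the Ctla4 window 1, and the Cd3g window 1 match to the GATA letters. The annotated starts of Cd3d and Cd3g are 1355 bases apart on opposite strands. AGGAAG was found in 18 of the 38 promoters of the matched genes (47.4%) and in 35.4% of all 32851 promoters of this length, TGTGGT in 31.6% and 16.8%, and AGATAA in 13.2% and 11.2%. A match describes the letters in the window and was not tested as a binding site.

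The signalling proteins downstream of CD3 rose as well. Lck, the kinase that phosphorylates the CD3 chains, was at 5.94, 4.65 and 3.63 FPKM in CSA, 0.470, 0.467 and 0.451 in CFA, 0.753, 0.461 and 0.581 in CSS, and 0.203, 0.237 and 0.376 in CFS. CSA was separate from all other groups, and both CFA and CSS were above CFS without overlap. Its log2 fold change, CSA against CFA, was 3.08 ± 0.30 (limma, adjusted p = 1.7e-05). Zap70, the kinase that docks on phosphorylated CD3 and zeta chains, was at 3.44, 2.62 and 0.894 FPKM in CSA and at most 0.396 elsewhere, a log2 fold change of 3.08 ± 0.54 (limma, adjusted p = 0.0018). Lat, the membrane scaffold phosphorylated by Zap70, was at 3.90, 3.10 and 1.27 FPKM in CSA and at most 0.467 elsewhere, a log2 fold change of 2.98 ± 0.49 (limma, adjusted p = 0.00061). For both genes mouse 03 was lowest in CSA but still above every mouse outside it. Skap1, an adaptor between the T cell receptor and integrins, was at 0.515, 0.404 and 0.840 FPKM against at most 0.101 elsewhere (log2 fold change 2.48, limma, adjusted p = 0.00071). Ubash3a, a negative regulator of receptor signalling, was at 1.08, 0.708 and 0.569 FPKM in CSA and at 0 in all 3 CFA mice. Against a floor of 3 fragments per library it was at least 63.0-fold higher in CSA, from 514 fragments. Themis, a regulator of T cell selection, was at 0.202, 0.0767 and 0.0726 FPKM in CSA, from 80 fragments, and at most 0.0553 elsewhere. The groups did not overlap for Themis, but its log2 fold change of 0.98 was below 1.5 (limma, adjusted p = 0.024).

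The pan-T surface proteins all rose. Cd2, an adhesion receptor of T and NK cells, was at 5.23, 4.31 and 5.17 FPKM in CSA and 0.158, 0.650 and 0.0542 in CFA, with at most 0.433 under saline. That is a 17.1-fold ratio of means and a log2 fold change of 4.01 ± 0.64 (limma, adjusted p = 0.00051). Cd5, a receptor that dampens T cell receptor signals, was at 4.95, 3.99 and 2.43 FPKM against at most 0.650 elsewhere (log2 fold change 3.81 ± 0.65, limma, adjusted p = 0.00078). Cd6, its neighbour on chromosome 19 and a related receptor, was at 3.69, 2.96 and 2.09 FPKM against 0.302 to 0.901 elsewhere (log2 fold change 2.41 ± 0.40, limma, adjusted p = 0.00067). Cd6 had the highest level outside CSA of these genes, and its ratio of means, 6.21, was the smallest of them.

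Among the CD4 and helper genes, Cd4 rose and Gata3 ran the other way. Cd4, the coreceptor of helper and regulatory T cells (ENSMUSG00000023274, chr6:124864692-124888221), was at 5.89, 4.10 and 3.32 FPKM in CSA, 0.102, 0.421 and 0.129 in CFA, 0.400, 0.227 and 0.308 in CSS, and 0.134, 0.292 and 0.360 in CFS. All CSA mice were above all others, with means of 4.44 ± 1.32 in CSA and 0.217 ± 0.177 in CFA (SD, n = 3), a 20.4-fold ratio. The log2 fold change was 3.93 ± 0.45 (limma, adjusted p = 5.4e-05). Tbx21, the T-bet gene of type 1 helper and NK cells, was at 1.27, 0.796 and 0.734 FPKM against at most 0.346 elsewhere (log2 fold change 2.17 ± 0.55, limma, adjusted p = 0.016). That call was lost without CSA mouse 01, CFA mouse 71 or CFA mouse 74. Gata3, the factor of type 2 helper cells, which type 2 innate lymphoid and non-lymphoid cells also express, was at 0.966, 1.23 and 0.935 FPKM in CSA and 2.35, 1.27 and 3.89 in CFA. Under saline it was at 2.42, 2.98 and 2.74 in CSS and 2.26, 2.16 and 3.18 in CFS. Each CSA mouse was below every other mouse, and the 9 others carried Gata3 at 1.27 FPKM or more where Cd3e was at 0.254 or less. Its log2 fold change was -1.06 ± 0.33 (limma, adjusted p = 0.025), within 1.5 and therefore not called.

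Both chains of CD8, the coreceptor of killer T cells, rose. Cd8a (ENSMUSG00000053977, chr6:71373427-71379173) was at 3.39, 1.98 and 1.18 FPKM in CSA, 0.0757, 0.181 and 0.0130 in CFA, 0.488, 0.134 and 0.139 in CSS, and 0, 0.235 and 0.303 in CFS. Cd8b1 (chr6:71322788-71337494), whose product pairs with that of Cd8a on conventional CD8 T cells, was at 4.55, 3.21 and 3.04 FPKM in CSA, 0.0619, 0.159 and 0.0636 in CFA, 0.508, 0 and 0.0310 in CSS, and 0, 0.144 and 0 in CFS. CSA did not overlap any other group for either gene, and mouse 54 was the highest of the 9 others for both. The log2 fold change, CSA against CFA, was 3.57 ± 0.68 for Cd8a (limma, adjusted p = 0.0016). For Cd8b1 it was 4.26 ± 0.70 (limma, adjusted p = 0.00059). Within CSA the level of Cd8a relative to Cd4 was 0.575, 0.483 and 0.357, and that of Cd8b1 relative to Cd8a was 1.34, 1.62 and 2.56. In FPKM, Cd4 was therefore above Cd8a in each CSA mouse, which does not measure the numbers of CD4 and CD8 T cells.

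**Figure D3:**
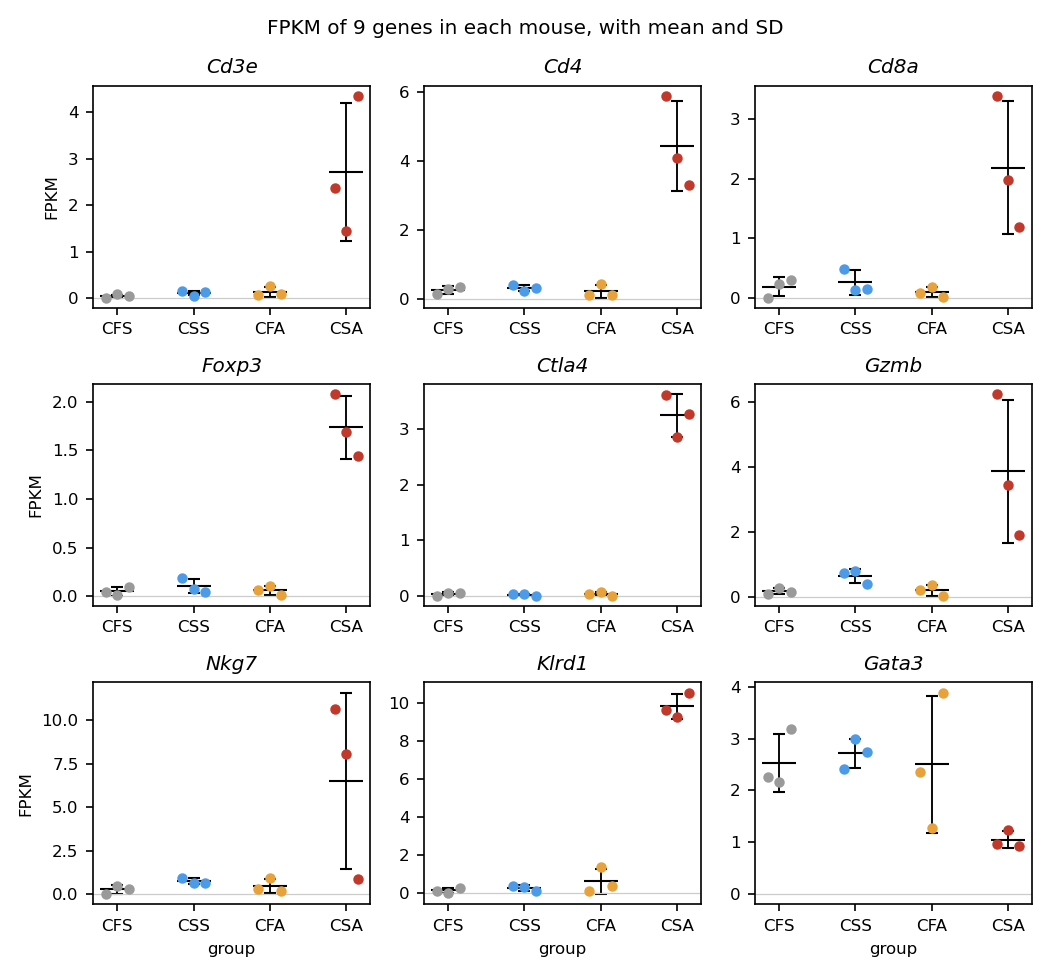
FPKM per mouse (points) with the group mean and SD (bar) for Cd3e, Cd4, Cd8a, Foxp3, Ctla4, Gzmb, Nkg7, Klrd1 and Gata3, with 3 mice in each of CFS, CSS, CFA and CSA. The CSA points lie above all others in 7 panels, Nkg7 has 1 CSA mouse at 0.857 among the others, and Gata3 is lowest in CSA.

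All 5 costimulation and checkpoint receptors rose. Ctla4, the inhibitory receptor of activated and regulatory T cells (ENSMUSG00000026011), was at 3.61, 2.85 and 3.28 FPKM in CSA, 0.0197, 0.0607 and 0 in CFA, 0.0231, 0.0232 and 0 in CSS, and 0, 0.0459 and 0.0498 in CFS. The CSA mice were all far above the rest, with 429 fragments over CSA and 4 over CFA, a rate ratio whose 95% counting interval ran from 47.0 to 447. Its log2 fold change was 4.74 ± 0.49 (limma, adjusted p = 2.4e-05). Icos, an inducible costimulator of activated T cells, was at 2.50, 2.10 and 3.69 FPKM in CSA and at most 0.343 elsewhere (log2 fold change 3.30, limma, adjusted p = 0.00015). Cd28, the costimulator of resting T cells, was at 0.965, 0.963 and 1.36 FPKM against at most 0.0947 elsewhere (log2 fold change 2.79, limma, adjusted p = 0.00011). These 3 genes are neighbours on chromosome 1 (chr1:60716800-60773359 for Cd28, chr1:60887000-60915832 for Ctla4 and chr1:60977927-61000320 for Icos). In CSA their levels were ordered Ctla4, then Icos, then Cd28 in mice 01 and 02, and in mouse 03 Icos was above Ctla4. Pdcd1, which encodes the inhibitory receptor PD-1, was at 3.67, 3.64 and 3.21 FPKM in CSA and 0.0951, 0.391 and 0.0733 in CFA (log2 fold change 3.82, limma, adjusted p = 0.00021). Tigit, an inhibitory receptor of T and NK cells, was at 2.68, 3.08 and 2.06 FPKM in CSA and 0.0499, 0.103 and 0.103 in CFA (log2 fold change 3.87, limma, adjusted p = 0.00013). The 3 CSA mice were close for Pdcd1, at 3.51 ± 0.258 FPKM (SD, n = 3).

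Foxp3, the factor that defines regulatory T cells (ENSMUSG00000039521, chrX:7573644-7595245), was at 2.07, 1.69 and 1.44 FPKM in CSA, 0.0690, 0.106 and 0.0118 in CFA, 0.189, 0.0812 and 0.0461 in CSS, and 0.0407, 0.0134 and 0.102 in CFS. The CSA mice were all above the rest, with means of 1.73 ± 0.320 in CSA and 0.0624 ± 0.0476 in CFA (SD, n = 3). The ratio of means was 27.8 and the log2 fold change 3.53 ± 0.52 (limma, adjusted p = 0.00029). Relative to Cd4, Foxp3 was at 0.352, 0.412 and 0.434 within CSA. Other genes share 31.5% of its exonic bases, among them Ccdc22 and Ppp1r3f, and whether its level holds reads of neighbours was not tested.

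Of the 4 T lineage transcription factors 3 rose. Tcf7, the TCF-1 gene of naive and memory T cells, was at 6.32, 4.58 and 6.66 FPKM in CSA and 1.08, 0.772 and 0.701 in CFA, with 0.598 to 1.31 under saline. CSA was separate from the rest, and the log2 fold change was 2.65 ± 0.28 (limma, adjusted p = 2.8e-05). Bcl11b, needed for T lineage commitment, was at 0.820, 0.541 and 0.434 FPKM against at most 0.126 elsewhere (log2 fold change 2.36, limma, adjusted p = 0.00038). Eomes, a factor of memory CD8 T cells and NK cells, was at 0.865, 0.703 and 0.770 FPKM in CSA and 0, 0.0907 and 0 in CFA (log2 fold change 2.82, limma, adjusted p = 0.00013). It was listed at 0 in all 3 CFS mice. Lef1, a relative of Tcf7, was at 0.135, 0.220 and 0.163 FPKM in CSA and at most 0.0547 elsewhere. Other genes share 13.7% of its exonic bases, and its log2 fold change of 1.11 was below 1.5 (limma, adjusted p = 0.017).

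All 4 cytotoxic granule genes rose against CFA, with wide spread among CSA mice. Gzma, encoding granzyme A, was at 7.05, 9.42 and 3.31 FPKM in CSA, 0.867, 1.64 and 0.516 in CFA, 1.12, 0.858 and 0.822 in CSS, and 0.484, 0.797 and 1.10 in CFS. Its log2 fold change was 2.60 ± 0.45 (limma, adjusted p = 0.0009). Gzmb, encoding granzyme B, was at 6.24, 3.45 and 1.91 FPKM in CSA and 0.224, 0.361 and 0.0328 in CFA, with 0.749, 0.789 and 0.384 in CSS and 0.0753, 0.261 and 0.162 in CFS. All CSA mice were above all CSS mice, and all CSS mice were above all CFS mice. The log2 fold change of Gzmb, CSA against CFA, was 3.72 ± 0.57 (limma, adjusted p = 0.00038). Prf1, the pore-forming perforin, was at 1.56, 0.748 and 0.480 FPKM in CSA and at most 0.229 elsewhere (log2 fold change 2.04 ± 0.43, limma, adjusted p = 0.0059). Gzmb relative to Prf1 was steady within CSA, at 3.99, 4.61 and 3.98. Nkg7, a granule membrane protein of NK and CD8 T cells, was at 10.7, 8.05 and 0.857 FPKM in CSA and 0.301, 0.928 and 0.155 in CFA. Mouse 03 lay within the CFA range, so the groups overlapped. The log2 fold change of Nkg7 was 3.21 ± 0.93 (limma, adjusted p = 0.031), and without CSA mouse 03 it was 4.31 (limma, adjusted p = 0.0018). The call was lost without CSA mouse 01, CSA mouse 02, CFA mouse 71 or CFA mouse 74.

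All 4 NK receptor genes rose. Klrd1, encoding CD94, which pairs with NKG2 receptors (chr6:129591782-129598775), was at 9.61, 9.27 and 10.5 FPKM in CSA, 0.108, 1.36 and 0.331 in CFA, 0.378, 0.295 and 0.0718 in CSS, and 0.0845, 0 and 0.272 in CFS. It had the highest CSA mean of the 36 genes, 9.81 ± 0.658 FPKM (SD, n = 3), with a log2 fold change of 4.29 ± 0.71 (limma, adjusted p = 0.00063). Mouse 72 was the highest of the 9 others. Klrk1, encoding the activating receptor NKG2D of NK and CD8 T cells (chr6:129610323-129623864), was at 2.85, 2.77 and 4.05 FPKM in CSA and at most 0.394 elsewhere, a log2 fold change of 3.83 ± 0.54 (limma, adjusted p = 0.00022). Ncr1, encoding NKp46 of NK cells and group 1 innate lymphoid cells (ENSMUSG00000062524, chr7:4337724-4345164), was at 2.24, 0.918 and 3.22 FPKM in CSA, 0.179, 0.367 and 0.214 in CFA, 0.210, 0.0701 and 0.0597 in CSS, and 0.0351, 0 and 0.452 in CFS. The CSA mice were above all others, with mouse 02 the lowest of the 3. The log2 fold change of Ncr1 was 2.53 ± 0.65 (limma, adjusted p = 0.018), a call lost without CSA mouse 01, CSA mouse 03, CFA mouse 71 or CFA mouse 74. Klrb1c, encoding NK1.1, with 13.9% of its exonic bases shared with other genes, was at 1.08, 0.939 and 0.220 FPKM in CSA and at most 0.164 elsewhere (log2 fold change 2.05 ± 0.49, limma, adjusted p = 0.012). Klrd1 and Klrk1 were thus highest in mouse 03, whereas Klrb1c was lowest there.

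Mouse 03 was below both other CSA mice for 23 of the 36 genes and above both for 8, and these shares were not computed over all features. On the log2 scale mouse 03 was below the mean of mice 01 and 02 for 25 of the 36 genes. Over all tested features with a known GC content mouse 03 was below that mean for 7378 of 14407. It was at no more than 0.5 of the level of both for Cd247, Zap70, Lat, Gzma, Nkg7 and Klrb1c. The deviation of mouse 03 from the mean of mice 01 and 02, on the log2 scale, followed the GC content of the gene's longest annotated transcript. Across the 36 genes Spearman's rho was -0.42, and across 14407 tested features with a known GC content it was -0.64, both as descriptions within 1 library over genes that are not independent. The 12 genes of the list with a GC content under 45% had a median deviation of 0.34, and the 17 with 50% or more had one of -0.50. Over all tested features these medians were 0.55 and -0.62. The difference between mice 01 and 02 had a rho of 0.09 across the 36 genes. The part of GC content in the values of mouse 03 was not tested. Without mouse 03, 31 of the 36 genes were called higher in CSA than in CFA, a count given without its share of all features.

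**Figure D4:**
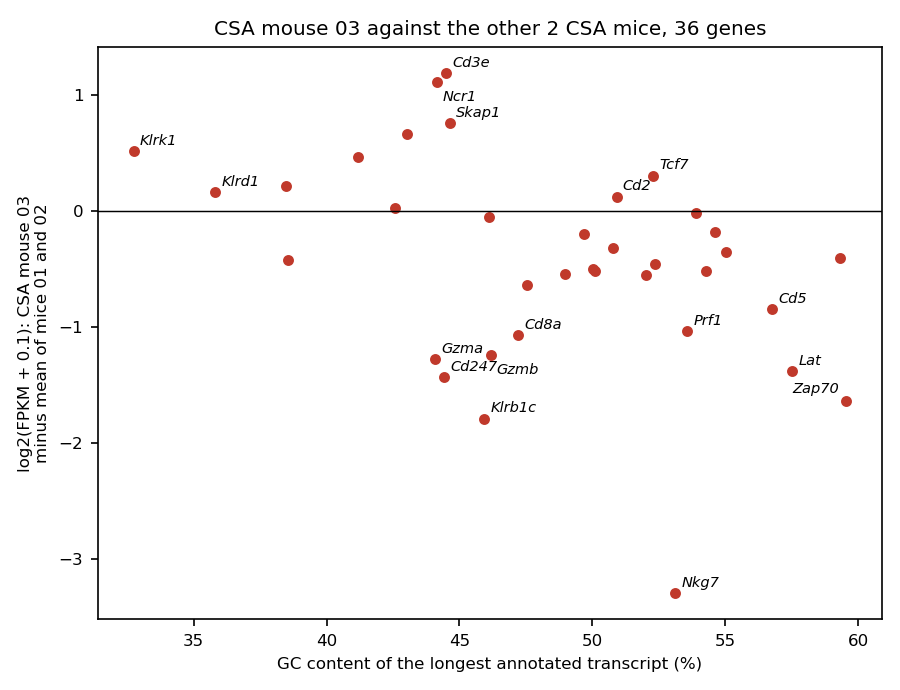
Deviation of CSA mouse 03 from the mean of CSA mice 01 and 02 (log2 of FPKM + 0.1, y axis) against the GC content of the longest annotated transcript in percent (x axis), with 1 point for each of the 36 genes. Genes of higher GC content tend to lie lower (rho -0.42), and Nkg7 lies furthest below 0.

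The comparison of CSA with CSS asks how the genes differ with Ang II in CCN2SMCΔ mice, and it shares the CSA libraries with the comparison above. By the same test 31 of the 36 genes rose and 0 fell, against 7.48% and 4.92% of the features tested, and limma voom called 33 and 0. Among filtered features 10.9% rose and 9.36% fell. Gata3 was the single gene pointing down, at an unadjusted p below 0.05. The median log2 fold change was 2.68, and 0 over all features. Those not called were Cd247, Themis, Lef1, Gata3 and Nkg7. With 1 FPKM added before the logarithm 17 passed both thresholds, again with no share of all features beside it. Nkg7 was then called, and 15 genes were not, namely Zap70, Lat, Skap1, Ubash3a, Cd6, Tbx21, Cd8a, Cd28, Foxp3, Bcl11b, Eomes, Gzmb, Prf1, Klrb1c and Ncr1. For Nkg7 the log2 fold change with 0.1 FPKM added was 2.39 (limma, adjusted p = 0.092), and 3.48 without CSA mouse 03 (limma, adjusted p = 0.0053). Cd247 too was called without that mouse. Klrb1c was not called without CSA mouse 01, CSA mouse 02 or CSS mouse 56, Prf1 was not without CSA mouse 01, and Tbx21 was not without CSS mouse 55. Side by side, the log2 fold change against CFA and against CSS was 3.54 and 3.66 for Cd3e, 3.93 and 3.44 for Cd4, 3.57 and 2.72 for Cd8a, and 3.53 and 3.20 for Foxp3. For the effector genes it was 3.72 and 2.32 for Gzmb, 4.29 and 4.96 for Klrd1, and 2.53 and 3.29 for Ncr1. Gata3 had values of -1.06 and -1.30 (limma, adjusted p = 0.0074 for the second). CSA and CSS did not overlap for 33 genes higher in CSA and for Gata3, lower, against 17.5% and 16.9% of features.

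In saline-treated mice, where CSS was set against CFS to ask about genotype without Ang II, 0 of the 36 genes were called by limma, against 0.00962% of features upward and 0.00641% downward. After the filter the background was 0.00681% in each direction. At an unadjusted p below 0.05 there were 4, and limma voom on recovered fragments also called 0 with 4 at that level. The 4 genes by limma were Lck, Lat, Tigit and Gzmb, with log2 fold changes of 0.91, 1.04, 1.31 and 1.49. No share of all features at that unadjusted level is given, so these counts are not read as a result. Of the 36 genes, 31 had a log2 fold change above 0, with a median of 0.44 and a range of -0.18 to 1.54, against a median of 0 over all features. CSS was above CFS without overlap for 9 genes (Cd247, Lck, Zap70, Lat, Tigit, Bcl11b, Eomes, Gzmb and Nkg7), against 6.87% of features, and below it for 0, against 5.95%. Mouse 54 was the highest of the CSS mice for 29 of the 36 genes. At these levels a group of 3 mice held few fragments, for example 53 over CSS and 13 over CFS for Gzmb.

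With Ang II in CCN2fl/fl mice, CFA against CFS, 0 of the 36 genes were called by limma, against 0.00962% of features upward and 0.00641% downward. After the filter these shares were 0.0204% and 0.00681%. The gene Lck had an unadjusted p below 0.05, with a log2 fold change of 0.62 (limma over all 31190 features, adjusted p = 0.72), and limma voom called 0 with 0 at that level. Here too no share of all features at that unadjusted level is given. Of the 36 genes, 28 had a log2 fold change above 0, with a median of 0.32 and a range of -0.42 to 1.42. The highest value belonged to Klrd1, where mouse 72 was at 1.36 FPKM and mice 71 and 74 were at 0.108 and 0.331. CFA was above CFS without overlap for Cd247 and Lck, against 6.49% of features, and below it for 0 genes, against 6.24%. Mouse 72 was the highest CFA mouse for 24 of the 36 genes. Its 7 pan-leukocyte markers summed to 92.4 FPKM, against 32.7 and 37.3 in the other CFA mice, and their part in these values was not tested.

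An interaction term tested whether genotype made a different change with Ang II than with saline. It was positive and called for 23 of the 36 genes and negative and called for 0, against 4.43% and 3.49% of the features tested. Among filtered features these shares were 7.89% and 7.31%. Limma voom called 13 and 0, a count given without its share of all features. Gata3 was the only gene pointing down, at -1.17 (limma, adjusted p = 0.089, unadjusted p = 0.029), and was called without CFA mouse 72. The largest was that of Ctla4, at 4.92 (limma, adjusted p = 0.00052). Cd4 followed at 3.71 (limma, adjusted p = 0.0017), Cd8b1 at 3.69 (limma, adjusted p = 0.018) and Klrk1 at 3.67 (limma, adjusted p = 0.0049). Foxp3 had an interaction of 3.11 (limma, adjusted p = 0.0097) and Cd3e one of 3.03 (limma, adjusted p = 0.014). Of the genes just named, Cd8b1 and Cd3e were not called by limma voom, and Foxp3 was not called with 1 FPKM added. Genes that rose against both control groups but had no called interaction included Zap70, at 1.98 (limma, adjusted p = 0.14), Gzmb, at 2.23 (limma, adjusted p = 0.065), and Ncr1, at 2.47 (limma, adjusted p = 0.13). The count depended on single mice. It was 15 without CSS mouse 55 and 15 without CSS mouse 56, and 27 without CSA mouse 03, when Zap70, Lat, Gzmb, Prf1 and Klrb1c were added and Klrd1 was lost.

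Whether the subset genes moved with the CD3 genes was asked within each library, as the log2 ratio of a gene to the mean of Cd3d, Cd3e and Cd3g. For 12 genes and 2 comparisons, 24 two-sided exact permutation tests of 3 against 3 were made, which cannot go below p = 0.1, and all adjusted p-values were 0.34 or higher. Each difference is followed by the lowest and the highest value when 1 mouse was left out in turn, with the mouse whose removal gave it. Cd4 differed by 0.27 from CFA with overlapping groups (0.09 without CFA mouse 71, up to 0.55 without CSA mouse 03), and by -0.26 from CSS with overlap (-0.47 without CSS mouse 54, up to 0.06 without CSS mouse 56, and 0.03 without CSA mouse 03). Foxp3 differed by -0.14 from CFA (-0.32 without CFA mouse 72, up to 0.08 without CSA mouse 03) and by -0.49 from CSS (-0.67 without CSA mouse 02, up to -0.28 without CSA mouse 03), both with overlap. The sign of Cd4 against CSS and of Foxp3 against CFA thus rested on single mice. Cd8a differed by -0.10 from CFA with overlap (-0.37 without CSA mouse 01, up to 0.36 without CSA mouse 03), and by -0.98 from CSS without overlap (exact p = 0.1; -1.26 without CSA mouse 01, up to -0.53 without CSA mouse 03). Cd8b1 differed by 0.60 from CFA (0.44 without CFA mouse 72, up to 0.80 without CSA mouse 03) and by 0.49 from CSS (0.04 without CSS mouse 55, up to 0.93 without CSS mouse 54), both with overlap. With the pan-leukocyte gene Ptprc as reference in place of CD3, the difference of Cd8b1 from CSS turned to -0.14.

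Among the granule genes, Gzma differed by -1.06 from CFA (-1.57 without CSA mouse 02, up to -0.54 without CSA mouse 03) and by -1.12 from CSS (-1.62 and -0.59 without the same mice), both with overlap. Gzmb differed by 0.05 from CFA with overlap (-0.27 without CSA mouse 01, up to 0.57 without CSA mouse 03, and below 0 also without CSA mouse 02 or CFA mouse 74), and by -1.38 from CSS without overlap (-1.71 and -0.87 without the same CSA mice, 01 and 03). Prf1 differed by -1.63 from CFA with overlap (-2.13 without CFA mouse 72, up to -1.18 without CSA mouse 03), and by -1.86 from CSS without overlap (-2.19 without CSA mouse 01, up to -1.42 without CSA mouse 03). Nkg7 differed by -0.45 from CFA (-1.09 without CSA mouse 02, up to 0.75 without CSA mouse 03) and by -1.31 from CSS (-1.95 and -0.12 without the same mice), both with overlap. Of these 4 genes Prf1 alone kept a negative difference in both comparisons under each removal, with Ptprc as reference and with 1 FPKM added.

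Among the NK receptors, Klrb1c differed by -1.62 from CFA (-2.06 without CSA mouse 02, up to -0.92 without CSA mouse 03) and by -1.79 from CSS (-2.23 and -1.09 without the same mice), both without overlap. Ncr1 differed by -1.13 from CFA without overlap (-1.40 without CSA mouse 03, up to -0.84 without CSA mouse 02), and by -0.41 from CSS with overlap (-0.68 and -0.11 without the same mice). Klrk1 differed by 0.16 from CFA (-0.10 without CFA mouse 71, up to 0.33 without CFA mouse 72) and by 0.55 from CSS (0.36 without CSS mouse 54, up to 0.72 without CSA mouse 01), both with overlap. With Ptprc as reference the difference of Klrk1 from CSS turned to -0.081. Klrd1 differed by 0.62 from CFA with overlap (0.05 without CFA mouse 71, up to 1.005 without CFA mouse 72), and by 1.26 from CSS without overlap (1.11 without CSA mouse 02, up to 1.46 without CSS mouse 55). The differences of Klrb1c and Ncr1 stayed negative and those of Klrd1 positive under each of these removals. The ratios outside CSA rest on few fragments, such as 30 over CFA for Cd3g.

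Other T and NK genes moved with the list. The constant gene of the T cell receptor alpha chain, Trac, was at 13.8, 9.63 and 11.0 FPKM in CSA and 0.0491, 0.655 and 0.252 in CFA (log2 fold change 5.07, limma, adjusted p = 0.00014). The beta chain constant genes Trbc1 and Trbc2 rose too, by 3.96 and 4.27 on the log2 scale. Of 41 other genes of T cell receptor signalling and adaptors, 28 rose with no filter, with a median log2 fold change of 2.71. The largest after filtering were those of the checkpoint receptor Havcr2 (5.13), which myeloid cells also express, the interleukin-2 receptor alpha chain gene Il2ra (4.75) and the interleukin-7 receptor gene Il7r (4.74). Of 31 other cytotoxic and NK genes, 24 rose, with a median of 2.73, led by Ctsw (4.08), Klrg1 (3.98) and Fcer1g (3.76), the last of which myeloid cells express as well. Of 113 measured T cell receptor segments 14 rose, led by Trbj1-6 (6.45) and Traj1 (5.96), with a median of 1.03 over all 113. By the same test 5.82% of all features rose.

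Markers of other cells moved in the same comparison, and their part in the results above was not tested. All 7 pan-leukocyte genes rose, with sums of 565 to 647 FPKM in CSA, 32.7 to 92.4 in CFA, 28.4 to 36 in CSS and 24.7 to 27.4 in CFS, led by Cd52 (log2 fold change 4.17), Cd53 (3.93) and Ptprc (3.74). Of 15 macrophage and monocyte genes 13 rose, led by Ly6c2 (6.60), Fcgr1 (5.24) and Ms4a7 (4.91), with sums of 2614 to 2807 FPKM in CSA and 362 to 753 in CFA. The macrophage genes Mrc1 (0.91) and Mertk (-0.73) did not pass. Of 10 neutrophil genes 9 rose, led by Ngp (6.52), S100a8 (5.27) and Cxcr2 (5.12), and Ly6g was at -0.11. Of 12 dendritic cell genes 9 rose, led by Ccl22 (3.33), Flt3 (2.97) and Itgae (2.50). Clec9a (0.27), Cd209a (-0.11) and Zbtb46 did not pass, and Zbtb46, a factor of conventional dendritic cells, pointed down at -0.80 (limma, adjusted p = 0.0037). Most of the myeloid genes were therefore higher in the same 3 libraries as the lymphoid ones. Of 10 B cell genes 3 rose, namely Fcrla (2.68), Cd79b (2.43) and Blk (2.03). Cd79a was at 0.03 on the same scale, and the defining genes Ms4a1 and Pax5 were at or below 0.295 and 0.189 FPKM in CSA. Of 209 measured immunoglobulin segments 64 rose, led by Igkj5 (7.67), Igha (6.61) and Igkj3 (6.44). Of 7 lymph node stroma genes 2 rose, Pdpn (2.49), which other stromal cells carry as well, and Madcam1 (1.90). Cxcl13 did not pass (1.33), and Ccl21a, Ccl19 and Glycam1 were at 0 to 0.670 FPKM in CSA. Of 10 type 2 innate lymphoid genes, which include Icos and Gata3 of the list, Icos and Klrg1 rose and Rora (-1.69) fell. Of 6 mast cell genes those furthest from 0 were Kit (-1.12), Cma1 (0.73) and Mcpt4 (-0.46), all within 1.5. All 7 smooth muscle genes fell, led by Myh11 (-4.17), Cnn1 (-3.80) and Lmod1 (-3.52), as did 3 of 6 adipocyte genes, Cidea (-4.87), Lep (-3.41) and Plin1 (-2.88).

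**Figure D5:**
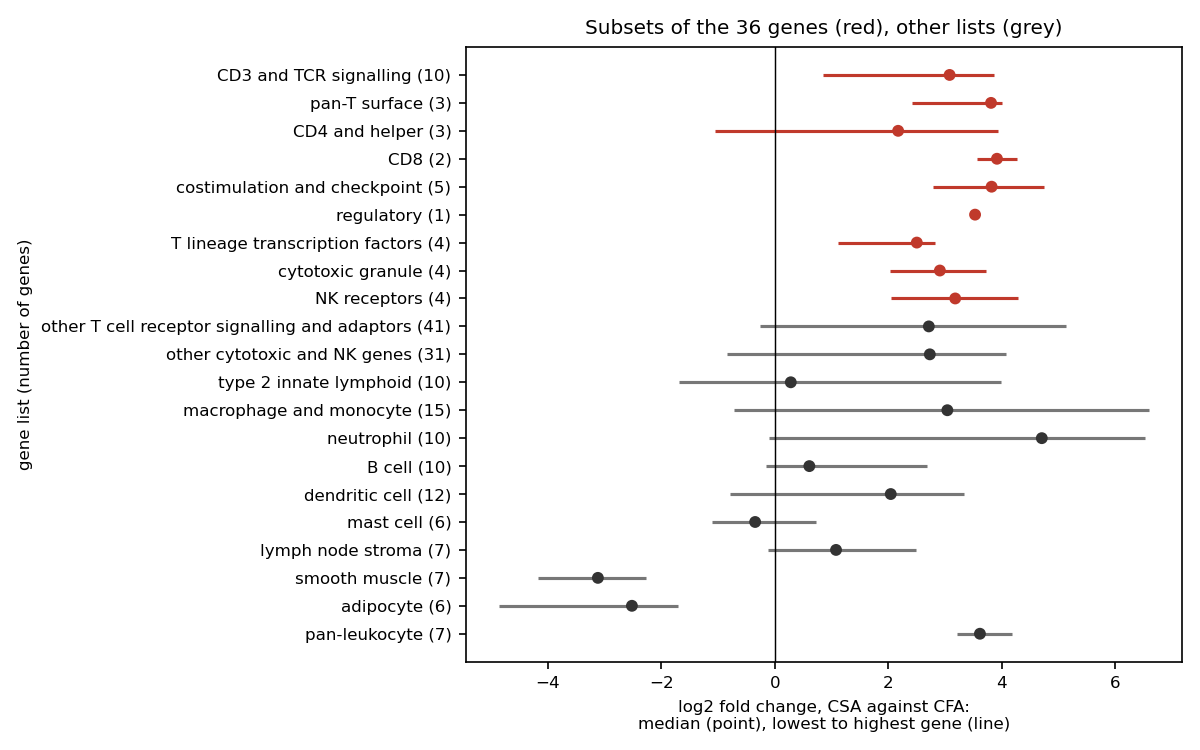
Median (point) and lowest to highest (line) log2 fold change, CSA against CFA, over the genes of each subset of the 36 genes (red) and of each other list (grey), with the number of genes in brackets. The subsets have medians of 2.17 to 3.91, pan-leukocyte genes one of 3.61, and smooth muscle genes one of -3.12.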

How the data were processed

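RNA was sequenced from 12 mouse abdominal aortas, and the authors deposited 1 table of FPKM values per gene with 1 column for each library, with no counts. The submitters' processing notes name mm10, HISAT2 2.0.5, StringTie 1.3.3b and featureCounts 1.5.0-p3, without their roles. Groups were taken from the sample labels. Ensembl IDs were matched to symbols, exon lengths and GC content in GENCODE M21 for 54409 of 55092 features, and 36 of 36 genes were found. Their choice, and that of the other lists, was made with earlier results of these data known.

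Values were tested as log2(FPKM + 0.1) with limma 3.58.1 in R 4.3.3 (1 coefficient per group, all 12 libraries, eBayes with trend and robust), after a filter of 1 FPKM in at least 3 libraries (14676 features) or none (31190 features above 0), with Benjamini-Hochberg adjustment over all of them. Calls needed both an adjusted p under 0.05 and a log2 change beyond 1.5 either way. The study's methods give a p under 0.05 with the same fold limit, and its volcano plot legend gives an adjusted p. The study's own tool needs counts. The fits were tested on simulated data, and no outcome of that is reported or used here. Per-mouse values are given for called genes, and from each other list the 3 tested genes of largest change were named. Blk, Madcam1, the uncalled genes of the myeloid lists and the genes given as near 0 were named after their values were seen. Fragments were recovered as FPKM times exon length in units of 1 fragment, and 98.0% to 98.5% of values under 100 came out whole within 0.05. They served for limma voom, counting intervals (95%) and a floor of 3 fragments for zeros, which cover counting error only. Ratios to CD3 were compared with two-sided exact permutation tests. Other steps used Python 3.11.15, pandas 2.3.3, numpy 2.4.6, scipy 1.17.1 and matplotlib 3.10.9. Alternatives were another pseudocount, filter, scaling, variance model, fold limit and sample set, limma voom, and each mouse left out in turn. Combinations with no filter were chosen after seeing the data. The level of 1 B cell gene is not reported here.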

Additional observations from a re-analysis of the deposited data

Results flagged for a closer look

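For 23 of the 36 genes the genotype effect with Ang II exceeded that with saline by an interaction test in limma, and no cause was tested. On the log2 scale the CD3 and signalling genes had differences of 3.03 for Cd3e, 2.98 for Cd3g, 2.16 for Lck, 2.50 for Skap1 and 2.62 for Ubash3a. Surface genes had 3.30 for Cd2, 3.31 for Cd5, 2.20 for Cd6, 3.71 for Cd4, 3.14 for Cd8a and 3.69 for Cd8b1. Costimulation and checkpoint receptors had 4.92 for Ctla4, 3.36 for Icos, 3.65 for Pdcd1, 2.56 for Tigit and 2.90 for Cd28. Transcription factors had 3.11 for Foxp3, 2.24 for Tcf7, 1.90 for Bcl11b and 2.33 for Eomes. Effector and NK genes had 2.34 for Gzma, 3.67 for Klrk1 and 3.54 for Klrd1. Of these, Skap1, Ubash3a, Cd28, Bcl11b and Eomes were tested in the unfiltered table. Limma voom without a filter did not call 10 of the 23, namely Cd3e, Cd3g, Skap1, Cd2, Cd8a, Cd8b1, Tigit, Eomes, Gzma and Klrd1. With a pseudocount of 1, 9 were not called, namely Skap1, Ubash3a, Cd6, Cd8a, Cd28, Tigit, Foxp3, Bcl11b and Eomes. Without CSS mouse 55, or without CSS mouse 56, 15 were called, and Cd2, Cd5, Cd6, Cd8a, Cd8b1, Bcl11b, Gzma and Klrd1 were not.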

How the results depend on the processing

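Of the 36 genes 22 passed the filter of 1 FPKM in 3 libraries, 19 of them through CSA alone, so the filter shaped their share of calls and filtered counts are not read as support. Without a filter, 32 of 36 rose against CFA, and limma voom called 34 against CFA and 33 against CSS. A filter on a mean FPKM of at least 1 left 12 genes to test, of which 11, 10 and 8 were called in those comparisons and the interaction. Limma voom with the first filter called 10 interactions. The shares of all features called under that mean filter and by limma voom are not given, so these counts are not read as support. With no fold limit, 1 gene, Gata3, fell in CSA against CFA and 1 against CSS. Each mouse was left out in turn with the filter kept as set on all 12 libraries. This gave 21 to 21 genes up in both comparisons with CSA, 15 to 20 interactions up and 0 to 1 down. Without a filter those ranges were 29 to 32 against CFA, 29 to 33 against CSS, 15 to 27 and 0 to 1. No share of all features is given beside these ranges, so they are not read as support. No gene reversed direction among those called. In the other alternatives run on single genes, 240 of 259 results kept their side of the thresholds against CFA, 235 of 259 against CSS and 201 of 237 in the interaction. Scaling to library totals moved the median feature by 0.080. With Ptprc as reference in place of CD3, the log2 ratios in CSA that moved by more than 1.5 times or turned sign were -0.17 for Cd8a, -0.21 for Foxp3, -0.02 for Gzmb and 0.09 for Klrk1 against CFA, and -0.89 for Cd4, -1.61 for Cd8a, -0.14 for Cd8b1, -1.13 for Foxp3, -1.75 for Gzma, -1.04 for Ncr1, -0.081 for Klrk1 and 0.63 for Klrd1 against CSS. With a pseudocount of 1 these moved as far in the ratio to CD3: against CFA -0.27 for Cd8a, 0.30 for Cd8b1, -0.40 for Foxp3, 0.11 for Gzma, 0.16 for Gzmb, -1.03 for Prf1, 0.27 for Nkg7, -0.51 for Ncr1, 0.09 for Klrk1 and 1.07 for Klrd1, and against CSS 0.27 for Cd4, -0.46 for Cd8a, 0.22 for Cd8b1, 0.13 for Gzma, -0.28 for Gzmb, -1.07 for Prf1, -0.02 for Nkg7, -1.13 for Klrb1c and 0.20 for Klrk1. The cause of these shifts was not tested. No paired analysis was possible because the groups share no replicate numbers. Outside CSA the genes rest on few fragments, and the smallest difference detectable there was not measured.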
